A study of Mus musculus with 4 samples.

Results

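Ribosome footprints of mouse cells labelled Mettl3-KO were compared between embryoid bodies (EBs) and the embryonic stem cells (ESCs) they were grown from. Mettl3 is the catalytic subunit of the enzyme complex that writes N6-methyladenosine (m6A) on messenger RNA. The comparison rests on 2 of the 4 libraries of the study, 1 library of knockout ESCs and 1 of knockout EBs. The other two hold wild-type ESCs and wild-type EBs, again with 1 library each. Footprint values per coding sequence were summed per gene, a gene was kept where its 4 values averaged 25 or more, and the 9265 autosomal genes of the 9670 that passed this filter were described. All 4 libraries carry the strain label C57BL/6. The ESCs of both genotypes were kept without serum in N2B27 medium with human LIF and the inhibitors CHIR99021, which blocks the kinase GSK3, and PD0325901, which blocks the kinase MEK. The EBs were formed in suspension without these factors, in medium with 15% fetal bovine serum. The labels give a range of 8 to 21 days for EB culture, and the day of each library was not given. Which stretch of Mettl3 was altered, and whether the knockout cells are 1 clone, was not given either.

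Ribosome profiling sequences the short stretches of messenger RNA that ribosomes shield from RNase, so the reads on a coding sequence follow both the amount of the messenger and how heavily it is translated. These are not separated here. ESCs in the conditions above are held in naive pluripotency by LIF, which acts through STAT3, and by the blocks on the ERK and GSK3 kinases. Once these are withdrawn, aggregated cells normally leave this state and form EBs, whose outer layer becomes visceral endoderm, an epithelium that takes up and secretes serum proteins and lays down basement membrane. Marks of m6A shorten the life of many messengers, among them those of naive pluripotency factors, and cells without Mettl3 are known for a delayed exit from the naive state.

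The knockout ESC library held 11455539 reads on genes and the knockout EB library 4075850. The wild-type libraries held 8570204 and 4234361. The deposited values had been divided by 1 factor per library, so that a single read was worth 0.533 units in knockout ESCs and 1.49 units in knockout EBs. Values below are in these normalised footprint units, and 3 reads, the floor used here, come to 1.60 and 4.48 units. Reads that map to more than 1 place were 48.4% and 53.1% of those listed for the 2 knockout libraries, and were not assigned to genes. With 1 library per group nothing measures the spread between cultures, so no p-value is given for the comparison, and all intervals are 95% intervals for counting error alone. Mettl3 itself stood at 298 in knockout ESCs and 327 in knockout EBs, against 563 and 429 in wild-type ESCs and EBs. Footprints on its coding sequence were therefore present in both knockout libraries, and since the altered stretch was not given, these values do not check the genotype. Footprints on the pluripotency factors Nanog, Pou5f1 and Sox2 were present in all 4 libraries, so they do not tell the ESC from the EB libraries.

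Most genes kept a similar level. Between knockout ESCs and EBs, 84.4% of the 9265 genes differed by less than 2-fold, and the median log2 change, EBs over ESCs with a pseudocount of 1, was -0.08. At least 2-fold higher in EBs were 830 genes (8.96% of those tested), and at least 2-fold lower were 614 (6.63%). At least 4-fold higher were 196 genes (2.12%), and 4-fold lower were 71 (0.766%). The counting interval lay wholly above 2-fold for 496 of the higher genes and wholly below it for 238 of the lower ones. Together, the genes at least 2-fold higher took 3.01% of the gene reads in knockout ESCs and 8.12% in knockout EBs, and those at least 2-fold lower took 3.81% and 1.56%. In the pair of wild-type libraries, 1006 genes (10.9%) were at least 2-fold higher in EBs and 720 (7.77%) lower.

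**Figure D1:**
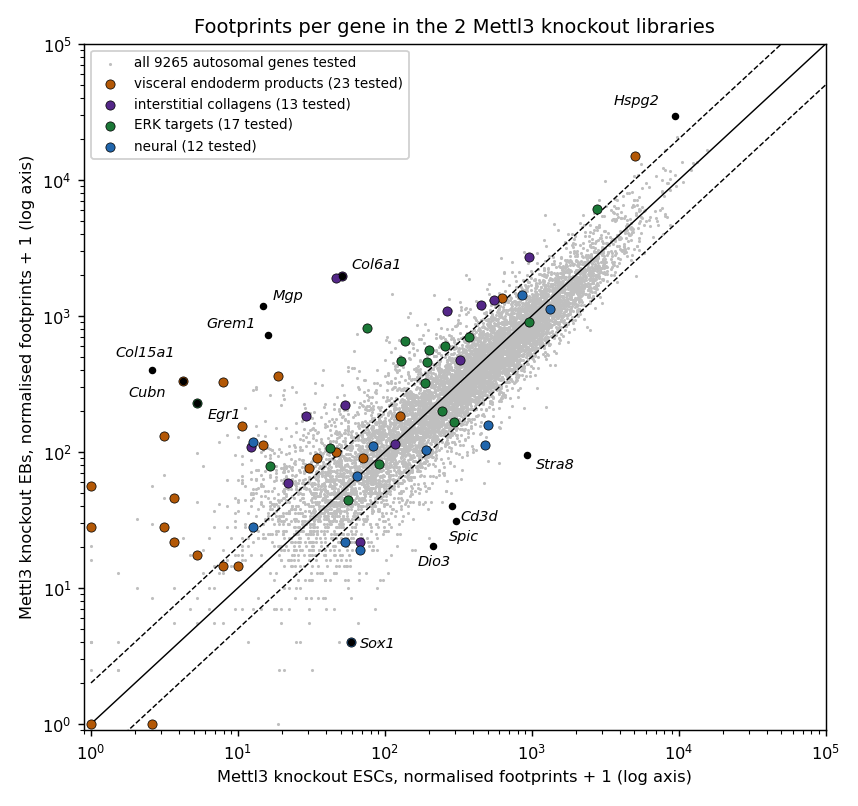
Each point is a gene, with its normalised footprints plus 1 in knockout ESCs on the horizontal log axis and in knockout EBs on the vertical log axis. The solid line marks equal levels and the dashed lines 2-fold differences, and black points are named genes. Most of the 9265 genes lie between the dashed lines, while Col15a1, Mgp, Grem1, Cubn and Egr1 lie far above them and Stra8, Cd3d, Spic and Dio3 far below.

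The 12 named genes with the highest EB value relative to ESCs fell into few kinds. They were ranked among genes whose larger knockout value was at least 100, which leaves out Fgb, described below. Matrix proteins came first. Col15a1, a collagen of the basement membrane zone, had 3 reads in knockout ESCs and 268 in knockout EBs, a log2 change of 7.27, and the interval of its fold is wide, 84.6 to 1219.8. Mgp, the matrix Gla protein that keeps soft tissue from calcifying, had 13.9 in knockout ESCs and 1185 in knockout EBs, an 85.5-fold difference (57.9 to 132). The collagen VI chains Col6a2 and Col6a1, which lie 85161 bases apart on chromosome 10 and assemble into the same microfibrils, went from 45.9 to 1891 and from 50.1 to 1964. Their folds, 41.2 (33.1 to 51.9) and 39.2 (31.8 to 48.8), overlapped. Cthrc1, a secreted protein with a collagen-like repeat, stood at 12.3 in knockout ESCs and 288 in knockout EBs, and Ptgs1, the cyclooxygenase of prostaglandin synthesis, at 12.3 and 300.0.

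The rest of the 12 were a BMP antagonist, an immediate early factor and genes of visceral endoderm or epithelium. Grem1, which binds BMP ligands outside the cell, had 14.9 in knockout ESCs and 719 in knockout EBs, a 48.2-fold difference (32.9 to 73.3). Egr1, a transcription factor switched on within minutes of ERK signalling, had 4.27 and 229.9, or 53.9-fold (26.7 to 127). Cubn, the endocytic receptor cubilin of the visceral endoderm, had 3.20 and 331, or 104-fold (46.8 to 285). In knockout ESCs these levels stood for only 6 reads of Cubn, 8 of Egr1 and 28 of Grem1. Afp, the fetal serum protein alpha-fetoprotein, went from 6.93 to 328, Car4, a carbonic anhydrase on the cell surface, from 2.13 to 129.9, and Esrp1, a splicing regulator of epithelia, from 11.7 to 287. Each of the 12 was also higher in wild-type EBs than in wild-type ESCs. Cubn, Afp, Car4 and Esrp1 were at 15999.9, 8637, 3761 and 1197 in wild-type EBs, above the knockout EBs, and the other eight were at lower values than in knockout EBs.

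The 12 named genes with the lowest EB value relative to ESCs shared no single role. They too were ranked among genes whose larger knockout value was at least 100, which leaves out Sox1, described below. The lowest of the 12 was Dio3, the imprinted deiodinase that inactivates thyroid hormone. It stood at 210.2 in knockout ESCs and 19.4 in knockout EBs, or 10.8-fold lower in EBs (6.26 to 20.5). Spic, an ETS family transcription factor, stood at 306 and 29.9, or 10.3-fold lower (6.58 to 16.9). Stra8, which retinoic acid induces in germ cells before meiosis, stood at 929.8 and 94.0, or 9.89-fold lower (7.69 to 12.9). Stra8 had 1743 reads in knockout ESCs and 63 in knockout EBs, the narrowest interval of the 3 genes. Cd3g and Cd3d, which encode subunits of the T cell receptor complex, went from 197 to 22.4 and from 284 to 38.8. They lie on chromosome 9 with 1337 bases between them, at chr9:44969572-44980431 and chr9:44981769-44987052. Cd3e, a further subunit from the same complex named here after its value was seen, went from 79.5 to 25.4, while Zap70, a kinase that binds the complex, was level, from 66.1 to 73.1. None of the 21 genes on a separate list of blood markers passed the filter. Ptprc, the leukocyte antigen CD45, is listed at 0 in all 4 libraries, but so are widely expressed genes such as Stat3, so such a 0 does not show absence.

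The other seven of these 12 were a varied group. Serpinb1a, an inhibitor of neutrophil proteases, went from 469 to 58.2 and Mras, a small GTPase of the Ras family, from 599 to 82.1. Myh13, a myosin heavy chain of eye muscles, went from 152 to 17.9, with 15.4% of its coding sequence found elsewhere in the genome, and the same share was 21.8% for Serpinb1a. The ankyrin repeat gene Ankrd44 went from 161 to 17.9, the SH2 domain gene Sh2d4b from 105 to 11.9, the asialoglycoprotein receptor gene Asgr2 from 101 to 14.9 and the arginine methyltransferase gene Prmt8 from 109 to 16.4. All 12 were lower in wild-type EBs than in wild-type ESCs as well, with log2 changes between -5.71 for Serpinb1a and -1.79 for Ankrd44.

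Promoters of the strongly changed genes were poorer in CpG than those of other genes. Over the 250 bases before the annotated start, the ratio of observed to expected CpG had a median of 0.741 in the 7416 tested genes with a promoter in RefSeq's GRCm38.p6 table. The median was 0.518 in the 131 such genes at least 4-fold higher in knockout EBs and 0.362 in the 51 at least 4-fold lower, so both directions lay below. The same held for the wild-type comparison, at 0.559 for 302 genes 4-fold higher and 0.539 for 183 genes 4-fold lower. The motif TATAAA, searched on both strands, was found at any start of 17 of the 131 genes 4-fold higher (13.0%). It was found for 6 of the 51 genes 4-fold lower (11.8%) and for 7.13% of all tested genes. Counted per promoter and not per gene, 12.4% of all 32851 promoters in the table held it. To show what a promoter poor in CpG looks like, the 80 bases before the start are given for CpG-poor examples, 2 genes that were higher (Afp, Cubn), 3 that were lower (Spic, Cd3g, Cd3d) and, for contrast, 2 CpG-rich ones close to no change (Ahdc1, Dock6), with CpG in capitals, 5′ to 3′ on the gene's strand.
Afp, chr5:90490634-90490713, plus strand: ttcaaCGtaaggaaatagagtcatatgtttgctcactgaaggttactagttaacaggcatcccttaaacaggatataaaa
Cubn, chr2:13491877-13491956, minus strand: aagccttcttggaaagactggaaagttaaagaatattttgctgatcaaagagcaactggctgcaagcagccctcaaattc
Spic, chr10:88683024-88683103, minus strand: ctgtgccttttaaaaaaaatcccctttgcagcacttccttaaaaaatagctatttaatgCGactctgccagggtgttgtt
Cd3g, chr9:44980432-44980511, minus strand: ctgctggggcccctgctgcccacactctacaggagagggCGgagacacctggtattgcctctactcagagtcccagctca
Cd3d, chr9:44981706-44981785, plus strand: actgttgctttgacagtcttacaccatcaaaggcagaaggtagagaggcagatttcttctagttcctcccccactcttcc
Ahdc1, chr4:133011426-133011505, plus strand: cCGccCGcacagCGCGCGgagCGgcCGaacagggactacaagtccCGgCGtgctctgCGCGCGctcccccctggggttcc
Dock6, chr9:21852636-21852715, minus strand: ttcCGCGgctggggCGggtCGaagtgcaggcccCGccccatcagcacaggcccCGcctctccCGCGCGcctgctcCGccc
The table of promoters places the start of Cd3d slightly inside the span of the gene given above. The first 5 hold 0 or 1 CpG in these 80 bases, whereas Ahdc1 holds 12 and Dock6 holds 10. This contrast is not a rule for single genes. The promoter of Grem1, among the highest, held 9 CpG in its 80 bases, and that of Mras, among the lowest, held 14. Cap1, also close to no change but not shown, held 5, with an observed to expected ratio of 0.46 over its 250 bases.

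Genes that mark visceral endoderm were higher in knockout EBs, from very low levels. Of 28 secreted and surface products of this tissue, 23 passed the filter. Of these 17 were at least 2-fold higher and 1 was lower, and the median log2 change was 1.73. Because many passed through their level in wild-type EBs, these counts describe the genes kept and not the whole list. Apob, the scaffold of lipoproteins, had 17.6 in knockout ESCs and 361 in knockout EBs, a 20.5-fold difference (14.2 to 30.5). Apoa1, the main protein of high-density lipoprotein, had 9.60 and 155. Fgb, a fibrinogen chain, had 0 reads in knockout ESCs and a value of 55.2 in knockout EBs, which is at least 34.5-fold higher against the floor of 3 reads. Apoa4 likewise had 0 reads and 26.9, at least 16.8-fold higher. Ttr, the carrier of thyroid hormone and retinol, had 2.13 and 26.9. Spp2, a secreted phosphoprotein, had 0 reads in both knockout libraries, and Habp2, a secreted protease, had 3 reads in knockout ESCs and 0 in knockout EBs. Habp2 is the 1 lower gene of the list, and at these counts no 2-fold difference is shown.

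Set beside wild-type EBs, these levels were low. Apob stood at 12038 in wild-type EBs, Apoa1 at 3116, Ttr at 1612, Fgb at 918, Spp2 at 368 and Habp2 at 349. The 28 products together had a summed value of 6044 in knockout ESCs and 18539 in knockout EBs, and most of these sums was Apoe, an apolipoprotein that many cell types make, at 5028 and 14998. Without Apoe the sums were 1016 and 3541 in the knockout libraries, and 776 and 70934 in wild-type ESCs and EBs. In bulk libraries such as these, fewer cells of a type and less RNA per cell cannot be told apart.

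The transcription factors of this lineage were mixed. Of 16 endoderm factors 12 passed, of which 5 were higher by 2-fold or more and 2 lower. Their median log2 change was 0.64. After centring on G+C content 3 were higher and 3 lower. Foxa2, a forkhead factor of endoderm, went from 2.13 to 44.8, Gata6 from 22.9 to 112, Sox17 from 41.1 to 110.5 and Gata4 from 47.5 to 127. Hnf4a, the nuclear receptor that drives many of the secreted products, stood at 61.3 in knockout ESCs and 67.2 in knockout EBs, with a ratio of 1.09 (0.758 to 1.56), against 6.23 to 399 in wild type. Gsc, an organiser homeobox gene, was lower, from 249.7 to 82.1. The first 4 factors thus moved in the same direction as in wild type and ended below it, whereas Hnf4a stayed within 2-fold.

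**Figure D2:**
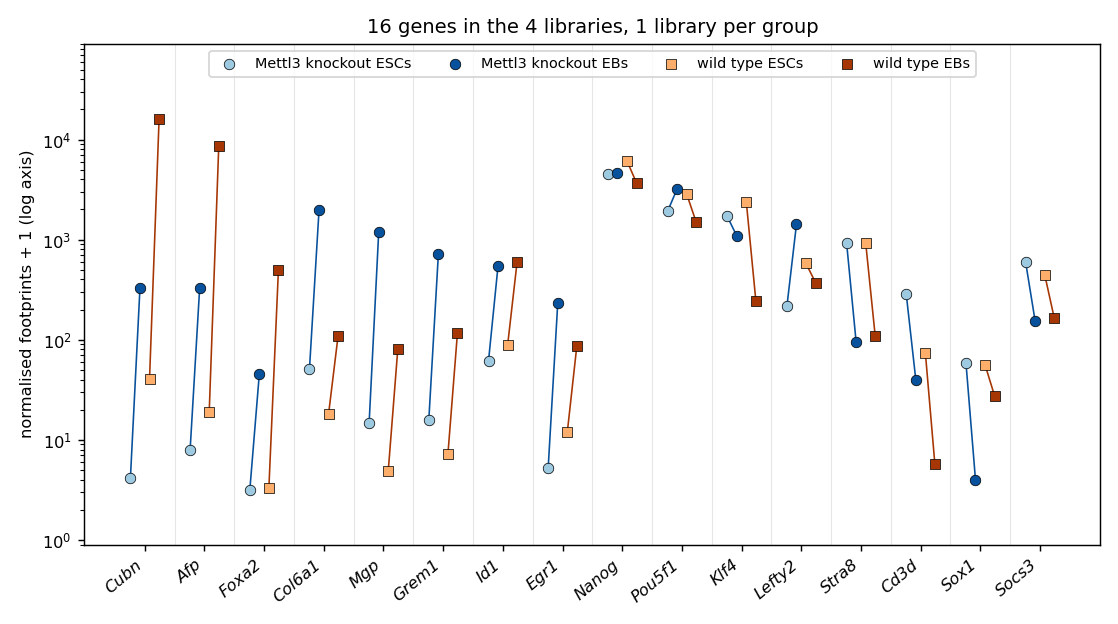
Normalised footprints plus 1 on a log axis for 16 genes in the 4 libraries, blue circles for Mettl3 knockout and orange squares for wild type, the paler symbol being ESCs and the darker EBs, joined within a genotype. Each symbol is 1 library, so there is no error bar. Cubn, Afp and Foxa2 end far below the wild-type EBs, Col6a1, Mgp and Grem1 end above them, and Nanog and Pou5f1 do not go down in the knockout.

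Most interstitial collagens were higher in knockout EBs. Of 17 autosomal members 13 passed, and past 2-fold were 10 higher genes and 1 lower one. The median log2 change was 1.52. The fibril collagen chains Col1a1, Col1a2 and Col3a1 went from 954 to 2733, from 452 to 1209 and from 265 to 1094. Col7a1, the anchoring fibril collagen, went from 11.2 to 107, and Col16a1 from 28.3 to 184. Col8a1 was the exception, from 67.2 to 20.9. These collagens were already present in knockout ESCs: Col1a1 and Col3a1 stood at 187 and 31.9 in wild-type ESCs, below the knockout ESCs. Fibroblast markers beyond collagen could not be followed, since Postn and Dcn had 0 reads in all 4 libraries and Lum was under the filter.

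Other matrix groups gave smaller medians. Of 22 basement membrane genes 19 passed, with a median of 0.80. Past 2-fold were 9 higher genes and 1 lower one. The collagen IV chains Col4a1 and Col4a2, whose genes lie head to head on chromosome 8, went from 884 to 2949.5 and from 911 to 2689.8. Hspg2, the proteoglycan perlecan, went from 9505 to 29435, and Lama5, a laminin chain, from 5531 to 13047. Lama1 and Lamb1, chains of the first laminin of the embryo, went from 619 to 1033 and from 1886 to 3970.5, while wild-type EBs had 21662 and 16809. Lama3, a laminin chain of stratified epithelia, was lower, from 275 to 133, but its log2 change of -1.04 came within 2-fold with a pseudocount of 10, TMM scaling or centring on coding length. Thus perlecan and Lama5 ended above the wild-type EBs, which had 10822 and 3600.2, and Col4a1, Col4a2, Lama1 and Lamb1 below them.

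Of 30 autosomal elastic fibre and matricellular genes 18 passed, with a median of 1.14, and past 2-fold were 13 higher genes and 2 lower ones. Tnc, the matrix protein tenascin C, went from 148 to 1045 and Thbs1, thrombospondin 1, from 729.7 to 2502. Ccn1 and Ccn2, secreted matricellular proteins, went from 986 to 2149 and from 787 to 1626. Fbln5 and Efemp1, a pair of fibulins that bind elastic fibres, were lower, from 702 to 179 and from 103 to 25.4. Of 25 collagen processing enzymes 16 passed, with 6 at least 2-fold higher, none lower and a median of 0.56. Loxl3, a lysyl oxidase that crosslinks collagen, went from 70.9 to 334, and Pcolce, which helps cleave procollagen, from 2509.8 to 1703.

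Naive pluripotency genes as a list showed little change. Of 18 members 16 passed, and their median was -0.05. Past 2-fold were 1 higher gene and 3 lower ones. Nanog, a homeobox factor that sustains self-renewal, stood at 4514 in knockout ESCs and 4675 in knockout EBs, a ratio of 1.04 (0.994 to 1.08). Klf4 went from 1705 to 1088 and Tfcp2l1 from 2741 to 1619.5, both by less than 2-fold. The 3 lower genes were Tet2, a dioxygenase that oxidises methylated DNA, from 3016 to 1245, Prdm14, from 1469 to 718, and Gbx2, from 189.9 to 92.5. Prdm14 came within 2-fold with TMM scaling or with centring on G+C content or coding length, and Tet2 with the last. Gbx2, only just past 2-fold, was not among the genes checked in this way. The single higher gene was Manba, a lysosomal enzyme used as a marker of the naive state, from 817 to 2108. In wild type the list median was -0.70, with Nanog from 6105 to 3691 and Klf4 from 2371 to 243. A caution attaches to the list: 28.1% of the coding sequence of Nanog and 32.1% of that of Zfp42 is found elsewhere in the genome, and over the 10 members with under 10% copied sequence the knockout median was -0.70 and the wild-type median -1.35.

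General pluripotency factors were level or higher. Of 14 members 12 passed, with a median of 0.27, or -0.01 after centring on G+C content. No member was 2-fold lower and 3 were 2-fold higher, among them Lin28a and Utf1. Pou5f1, the POU factor Oct4, stood at 1914 in knockout ESCs and 3205 in knockout EBs, against 2860.4 and 1493 in wild type, with 26.2% of its sequence copied elsewhere. Sox2, its partner, stood at 2856 and 4524. Lin28a, an RNA-binding protein that blocks let-7 maturation, went from 109 to 545, and Utf1, a chromatin factor of pluripotent cells, from 2234 to 5553. Sall4 and Dppa4 had 0 reads in all 4 libraries.

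Genes of the later, formative and primed states were higher or level, and none of those kept was lower. Of 18 members 12 passed, with a median of 0.71. All 12 lay above 0, where 44.5% of the genes tested did, and 5 were 2-fold higher or more. Nodal, the ligand that patterns the epiblast, went from 1753 to 3996. Its antagonists Lefty1 and Lefty2 went from 111 to 1457 and from 214 to 1415, with 39.4% of each coding sequence found elsewhere, since the genes are close copies 35914 bases apart. Pou3f1, the POU factor Oct6, went from 118 to 248, and Cldn6, a claudin, from 124 to 666. Sall3 and Sox4 were nearly level, from 240.0 to 242 and from 228 to 249. Otx2, Dnmt3a and Dnmt3b, widely used markers of this state, had 0 reads in all 4 libraries. Reads that fell on more than 1 coding sequence entry were set apart in the table as ambiguous, and whether this touches these genes was not tested. The list's coding sequences are rich in G and C, at a median of 64.5%, and its median after centring on G+C content (described below) was 0.30, with 3 genes 2-fold higher.

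Targets of ERK signalling were higher in knockout EBs, whose medium lacked the MEK inhibitor. Of 18 members 17 passed, with a median of 1.22. Past 2-fold were 10 genes, each of them higher. After centring on G+C content the median was 0.87, with 7 genes higher and none lower. Beside Egr1, Spry4, a feedback inhibitor of the pathway, went from 74.1 to 809, a 10.9-fold difference (9.04 to 13.2). The phosphatases Dusp4 and Dusp6, which switch ERK off, went from 137 to 658 and from 199 to 558. Spred2, a further inhibitor, went from 293 to 164, with 19.8% of its sequence found elsewhere. The wild-type median was 1.39.

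BMP and TGF-beta ligands, antagonists and targets were partly higher. Of 29 members 23 passed, with a median of 0.57, and the 10 past 2-fold were higher. After centring on G+C content the median was 0.21, with 9 genes higher and 1 lower. Among ligands, Inhba, a subunit of activin A, went from 15.5 to 263, Bmp4 from 27.2 to 222 and Tgfb1 from 52.3 to 224. The direct BMP targets Id1, Id2 and Id3, which block basic helix-loop-helix factors, went from 60.3 to 548, from 125 to 503 and from 180.3 to 728. Among antagonists Grem1 was far higher, as above, whereas Nog stood at 30.9 and 19.4 and the pseudoreceptor Bambi at 509 and 315. So the antagonists did not move as a group.

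Wnt targets and the LIF pathway showed no shared direction. Of 18 Wnt targets 11 passed, with a median of -0.10, and the 3 past 2-fold were higher. Axin2, a general feedback target of the pathway, went from 119 to 76.1 and Ccnd2, a cyclin D, from 169.6 to 673. Of 12 members of the LIF list 9 passed, with a median of 0.23, or -0.10 after centring on G+C content, and 2 were at least 2-fold lower. The 2 were Socs3, the feedback inhibitor that STAT3 induces, from 595 to 152, and Bcl3, from 404 to 173. Il6st, the shared receptor gp130, went from 1035 to 1254 and Pim1, a kinase, from 1939.6 to 2908. Stat3 had 0 reads in all 4 libraries.

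Few markers of other germ layers passed the filter. Of 24 mesoderm genes only 5 passed, and 4 were past 2-fold, on the higher side. Among them were Hand1, a factor of extraembryonic and heart mesoderm, from 22.4 to 299, Mesp2, from 68.8 to 219, and Snai1, from 150.4 to 339. After centring on G+C content the mesoderm median went from 1.17 to 0.51 and 1 gene was past 2-fold. Eomes had 0 reads in all 4 libraries and T, the brachyury factor, 0 in both knockout libraries. Of 28 heart and muscle genes 8 passed, with a median of -0.41. Myl3, a myosin light chain, went from 2.13 to 67.2, while the smooth muscle genes Acta2 and Tagln went from 397 to 98.5 and from 169.6 to 103. No gene of 21 blood markers passed the filter, and 10 of the 21 are listed at 0 in all 4 libraries. Since widely expressed genes are listed at 0 as well, among them 7 of the 12 genes of the DNA methylation list, these zeros do not show that the cells were absent.

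Neural genes were more often lower than higher. Of 26 members 12 passed, with a median of -0.56. Past 2-fold were 2 higher genes and 5 lower ones. Sox1, the earliest neural plate factor, stood at 58.1 in knockout ESCs and 2.99 in knockout EBs, the latter only 2 reads, so that its 19.5-fold difference has an interval of 5.26 to 163. Nefl, a neurofilament chain, went from 483 to 112, and Nes, the intermediate filament nestin, from 500.4 to 157. Sox10, a neural crest factor, was higher, from 11.7 to 118. Pax6, Map2 and Ncam1 had 0 reads in all 4 libraries.

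Many genes of simple epithelium were higher in knockout EBs. Of 21 members of the list of trophoblast and simple epithelium 15 passed, with 8 past 2-fold, each higher, and a median of 1.49, or 0.87 after centring on G+C content. The 8 were the keratins Krt7, Krt8, Krt18 and Krt19, Epcam, the claudin Cldn3, and the placental genes Ascl2 and Peg10. The keratins Krt18 and Krt19 went from 355 to 2005 and from 106 to 640.4, and the adhesion protein gene Epcam from 620.4 to 2645. Dsp, the desmosomal plaque protein, went from 448 to 312. The trophoblast factors Elf5 and Cdx2 did not pass. Of 15 endothelial genes 9 passed, with 4 genes past 2-fold, each higher, and a median of 0.27, or -0.34 over the members whose 4 values average 100 or more. Flt1, a VEGF receptor, went from 26.1 to 169, and Vwf, the clotting factor of endothelium, from 354 to 215, whereas Pecam1 had 0 reads in all 4 libraries and Cdh5 was under the filter.

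The m6A machinery was slightly lower in knockout EBs. Among the 18 autosomal factors listed, 16 passed, none at least 2-fold either way, with 15 of 16 below 0 (55.5% of the genes tested were) and a median of -0.35. The writer partner Mettl14 went from 483 to 372, the scaffold Virma from 2033 to 1189.7, the reader Ythdc1 from 3067 to 1872 and the binding protein Igf2bp3 from 992 to 515. The demethylase Fto was level, from 1465 to 1375.

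Imprinted, germline, p53 and interferon genes were each mixed. Of 27 imprinted genes on a list that does not hold Dio3, 15 passed, with a median of 0.74, 5 past 2-fold on the higher side and 1 on the lower. Igf2, the fetal growth factor, went from 16.5 to 97 and Cdkn1c, a cell cycle inhibitor, from 12.3 to 62.7, while Plagl1, a zinc finger factor, went from 260.3 to 50.8. Of 28 germline genes 22 passed, 4 higher and 2 lower. Mael, a piRNA pathway protein, went from 44.8 to 155 and Tex15 from 190.4 to 50.8.

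Of 22 autosomal p53 targets 18 passed, with a median of 0.44 and 1 gene past 2-fold on either side, no larger a share than among all genes. Bbc3, the cell death protein Puma, went from 117 to 321, and Rrm2b, a ribonucleotide reductase subunit with 47.9% of its sequence found elsewhere, from 232 to 67.2. Of 31 interferon response genes 14 passed, 4 higher and 4 lower, with a median of 0.18. Rsad2, the antiviral protein viperin, went from 9.60 to 58.2 and Bst2, which tethers budding viruses, from 944 to 2451. Oasl1, an oligoadenylate synthetase relative, went from 348 to 121.

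Genes of the ATF4 response to amino acid shortage stayed level in the knockout. Of 30 autosomal members 25 passed, with a median of 0.23 and a single gene past 2-fold, on the higher side, whereas in wild type 9 of the 25 were at least 2-fold lower and the median was -0.76. Atf4 itself went from 1435 to 1687, against 2462 to 1169 in wild type. Slc7a5, a transporter of large neutral amino acids, went from 3597 to 5806, against 5603 to 2709, and Asns, asparagine synthetase, from 7703 to 6262, against 13545 to 6868. The median difference, knockout change minus wild-type change, was 1.25 on the log2 scale, where that of all genes was -0.09. The knockout ESCs were below the wild-type ESCs for each of these 3 genes.

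Secretory and lysosomal genes were modestly higher. Of 37 genes of translocation into and folding in the endoplasmic reticulum 30 passed, 26 of them above 0, with a median of 0.48. Among all genes tested 44.5% lay above 0. The 3 of 30 that were 2-fold higher were near the share among all genes, 8.96%. Sdf2l1 and Manf, proteins of the stress response of this compartment, went from 704 to 1679 and from 1238 to 2517, and the disulfide isomerase Pdia6 from 3212 to 6445. Of 35 lysosomal genes 28 passed, 23 of them above 0, with 4 at least 2-fold higher, none lower and a median of 0.63. Smpd1, the acid sphingomyelinase, went from 265 to 805 and the protease cathepsin D, Ctsd, from 4178 to 7607.

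Some genes of glucose use were higher, and other metabolic and growth lists held few genes past 2-fold. Of 29 glycolysis and hypoxia genes 21 passed, with a median of 0.30, and past 2-fold were 6 higher genes and 1 lower one. The glucose transporters Slc2a1 and Slc2a3 went from 3129 to 9822 and from 8090.2 to 16633, and hexokinase 1, Hk1, from 132 to 61.2. Of 22 cholesterol synthesis genes 20 passed, none past 2-fold, with 15 below 0, where 55.5% of all genes were, and a median of -0.33. Of 40 cell cycle genes 35 passed, 2 higher and 1 lower, with a median of -0.21. The 2 were the inhibitors of cyclin D kinases Cdkn2b, from 72.5 to 339, and Cdkn2a, from 174 to 373, and the 1 was the replication factor Gins1, from 205 to 98.5. None of 14 tested tRNA synthetases and none of 36 tested proteasome genes passed 2-fold. Of the DNA methylation list only 4 of 12 passed.

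Ribosomal protein and histone genes were higher in knockout EBs, and their reads are hard to place. Of 82 ribosomal protein genes 58 passed, 20 of them 2-fold higher, with a median of 0.70, but the median member had 94.6% of its coding sequence found elsewhere in the genome. Rpl8 and Rps3, with 12.6% and 24.1%, went from 4928 to 7133 and from 3689 to 4972. Of 75 histone genes 60 passed, all 60 above 0 and 17 of them past 2-fold. The median was 0.80, with 80.0% of the sequence of the median member copied. The linker histones H1f6 and H1f0, with no copied stretch, went from 317 to 1012 and from 1481 to 1619.5. After centring on G+C content the histone median was 0.32, with 3 genes past 2-fold. In wild type both medians were below 0, at -0.43 and -0.33.

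**Figure D3:**
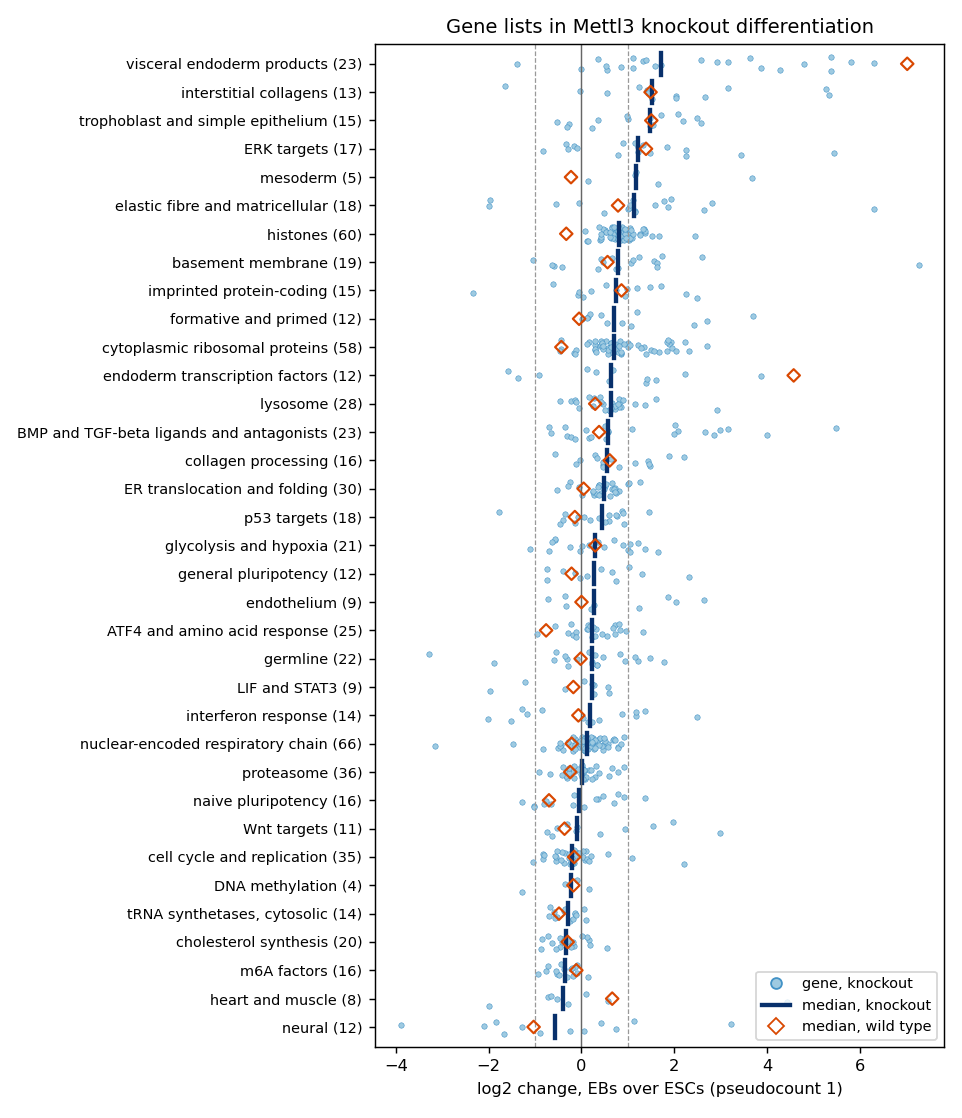
Each pale blue point is the log2 change of 1 gene between knockout ESCs and EBs, dark blue bars are the list medians in the knockout and orange diamonds the medians of the same genes in wild type; numbers of genes tested stand in brackets, and dashed lines mark 2-fold. Of the lists plotted, visceral endoderm products and interstitial collagens have the highest knockout medians, 1.73 and 1.52, and the neural list the lowest, -0.56; the wild-type medians of visceral endoderm products and endoderm factors lie far to the right.

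The knockout change went with the base composition of the coding sequence. Across 9263 genes, which are not independent replicates and share the 2 libraries, Spearman's rho between G+C content and the knockout log2 change was 0.41, while for the wild-type change it was -0.03. In 5 equal groups of genes ordered by G+C content, the median knockout change went from -0.46 through -0.21, -0.09 and 0.09 to 0.32. In the group with the lowest G+C content 14.1% of genes were at least 2-fold lower and 3.02% higher. In that with the highest content 2.86% were lower and 17.7% higher. The wild-type medians of the 5 groups lay between -0.05 and 0.03. The share of genes at least 2-fold higher grew with G+C content in wild type too, from 5.40% in the lowest group to 15.8% in the highest, and there the share 2-fold lower grew as well, from 4.8% to 10.1%. The level in knockout over wild-type EBs followed G+C content too, with a rho of 0.52, and that in knockout over wild-type ESCs with a rho of 0.29. Coding length went the other way and more weakly, with a rho of -0.19.

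Single genes picked from both ends of the groups by G+C content illustrate the difference in composition, so their contrast follows from the choice. Among genes with a mean value of at least 1000, 1 coding sequence entry and under 10% copied sequence, the 3 lowest by knockout change in the lowest of these groups were Birc6, Btaf1 and Setd2, and the 3 highest in the top group were Col4a1, Fzd7 and Hspg2. Birc6, an inhibitor of cell death, went from 5084 to 1964, Btaf1, a remodeller of TATA-binding protein, from 1238 to 505, and Setd2, a histone methyltransferase, from 1527 to 627. Fzd7, a Wnt receptor, went from 493 to 1569. A stretch of 60 bases with about the G+C share of the whole coding sequence is shown for each, G and C in capitals, numbered from the first base of the start codon, from the GRCm38.p6 genome.
Birc6, bases 325 to 384 of the coding sequence: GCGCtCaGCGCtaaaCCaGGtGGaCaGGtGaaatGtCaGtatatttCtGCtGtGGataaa
Btaf1, bases 22 to 81 of the coding sequence: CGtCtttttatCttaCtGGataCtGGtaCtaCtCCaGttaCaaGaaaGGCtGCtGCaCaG
Setd2, bases 58 to 117 of the coding sequence: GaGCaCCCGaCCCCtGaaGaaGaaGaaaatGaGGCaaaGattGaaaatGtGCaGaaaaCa
Col4a1, bases 64 to 123 of the coding sequence: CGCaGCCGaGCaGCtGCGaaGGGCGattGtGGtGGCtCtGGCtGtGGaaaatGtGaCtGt
Fzd7, bases 97 to 156 of the coding sequence: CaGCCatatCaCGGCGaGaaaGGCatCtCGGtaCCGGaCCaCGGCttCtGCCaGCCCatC
Hspg2, bases 64 to 123 of the coding sequence: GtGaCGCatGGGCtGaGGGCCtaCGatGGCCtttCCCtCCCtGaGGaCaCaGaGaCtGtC
The whole coding sequences are 47.0, 42.7 and 43.9% G+C for the first 3 and 60.4, 61.8 and 60.9% for the last 3.

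When each gene's change was set against the median of genes of like G+C content, 698 genes were at least 2-fold higher and 511 lower. Visceral endoderm products then had a median of 1.46, interstitial collagens 1.16 and elastic fibre and matricellular genes 1.06. Of 110 named genes past 2-fold, 11 came within it and none turned direction. The 11 were Prdm14, Utf1, Mesp2, Snai1, Elavl3, Bbc3, Cebpb, Cdkn2a, Gins1, Sdf2l1 and H2bc1. A family of low G+C content, chosen after its values were seen, was only partly altered by centring. It holds 231 tested genes named Zfp with a number, most of which encode zinc finger proteins. Of these 53 were at least 2-fold lower and 1 higher, where 6.63% of all genes were lower. The family median was -0.59 in the knockout and 0.05 in wild type. After centring 20 were 2-fold lower and 2 higher, with a knockout median of -0.40, where that of all genes was -0.08. The reads on no annotated feature, 9.88% in knockout EBs against 7.70% in knockout ESCs, moved with the comparison as well. Their part in these results was not tested.

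**Figure D4:**
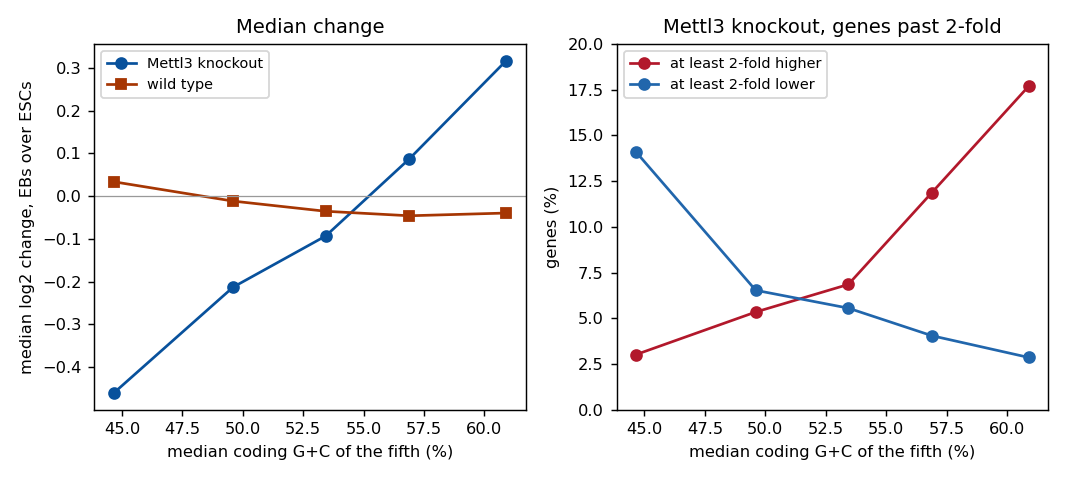
Genes in 5 equal groups by the G+C content of their coding sequence, placed at the group's median content in percent. On the left are the median log2 changes, EBs over ESCs, in the knockout (blue circles) and in wild type (orange squares); on the right is the percentage of genes at least 2-fold higher (red) or lower (blue) in knockout EBs. The knockout medians climb from -0.46 to 0.32 and the wild-type medians stay between -0.05 and 0.03.

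The knockout and wild-type changes were related but far from equal. Both comparisons use separate libraries. Of the 830 genes at least 2-fold higher in knockout EBs, 401 (48.3%) were also at least 2-fold higher in wild-type EBs, which is 39.9% of the 1006 higher there. Of the 614 lower genes, 186 (30.3%) were also lower in wild type, or 25.8% of the 720 lower there. In wild type 10.9% of the 9265 genes were past 2-fold on the higher side and 7.77% on the lower side. The 48.3% and 30.3% lay above these background shares. Opposite 2-fold differences were found for 52 of the 830 genes, higher in the knockout and lower in wild type. For 33 of the 614 it was the other way round. Neither was a larger share than the background of 7.77% and 10.9%, so these counts show no excess of opposite changes. Across genes Pearson's r between the 2 changes was 0.45 and Spearman's rho 0.28. The knockout change exceeded the wild-type change by 1 or more on the log2 scale for 998 genes (10.8%) and fell short by as much for 1168 (12.6%).

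Single genes show what lay at the ends of this difference. Inhbb, a subunit of activin B, stayed level in the knockout, from 272 to 385, where wild type went from 244 to 12.5, a difference of 4.69 (3.76 to 5.83). Pdgfc, a growth factor for mesenchyme, and Ngfr, the low-affinity neurotrophin receptor, behaved likewise, with 702 to 670.2 and 334 to 582 in the knockout and 272 to 17.1 and 762 to 96.6 in wild type. Kbtbd11 and the receptor gene Notch4 were higher in knockout EBs, from 121 to 428 and from 124 to 479, and lower in wild-type EBs. Dmgdh, a mitochondrial dehydrogenase, was lower in both, though less so in the knockout, from 348 to 124 against 330.0 to 4.68. At the other end were genes of endoderm epithelium. Muc13, a membrane mucin with 28.4% of its sequence found elsewhere, and Klb, a coreceptor for FGF hormones, went from 17.1 to 11.9 and from 136 to 40.3 in the knockout, against 3.11 to 711 and 17.1 to 899 in wild type. Ttr, Apoa1 and Hnf4a were also among the 6 lowest differences, at -7.50, -5.68 and -5.66.

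A count test was possible only for the stage effect shared by both genotypes, with genotype as a term and 1 residual degree of freedom, so it does not speak of the knockout alone. On whole reads recovered from the deposited values, edgeR's quasi-likelihood test called 20 of 9670 genes higher (0.207%) and 5 lower (0.0517%) in EBs at a Benjamini-Hochberg adjusted p under 0.05. Of the autosomal calls 19 were higher and 2 lower. DESeq2 called 274 (2.83%) and 101 (1.04%) on the same genes, and edgeR without the filter 243 (1.69%) and 95 (0.661%) of 14376 genes. The genes named as highest and lowest in the knockout were chosen on the same libraries, so a call of theirs is no independent support. Among them edgeR gave adjusted p-values of 0.0165 for Cubn and Esrp1, 0.0248 for Car4 and Col15a1, 0.0330 for Afp, Mgp, Grem1 and Cthrc1, and 0.0262 for the lower gene Stra8. Lefty1, Id1, Myl3 and Mmp9, a matrix protease at 63.5 in knockout ESCs and 737 in knockout EBs, were also called, at 0.0345, 0.0441, 0.0472 and 0.0330. Each of these was 2-fold or more higher in both genotypes.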

How the data were processed

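Ribosome profiling was done on 1 library each of wild-type and Mettl3-KO ESCs and EBs. The submitters' processing notes name DESeq, HTSeq 0.6.0, TopHat2 2.0.10, Bowtie, CASAVA 1.8.2 and the mouse build mm10. Strand settings were not given in the sources used here. What the authors deposited is a signal, namely reads per RefSeq coding sequence divided by 1 factor per library. Whole reads were recovered for 100% of values (tolerance 0.01), with 4075850 to 11455539 gene reads per library. Of 27442 entries, 27083 matched a symbol and were summed to 20716 genes; 5 summary entries were left out. Genes with a mean of at least 25 numbered 9670, of which 332 on X, 4 on Y and 69 without a position were left out. The table lists 8.62% to 10.5% of reads as ambiguous between entries.

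The log2 ratio used a pseudocount of 1; intervals are exact binomial (Clopper-Pearson), those of differences a normal approximation, both for counting error only. The share of copied sequence is that of 28-base windows found elsewhere in GRCm38.p6. Named genes were Mettl3, the 12 highest and 12 lowest with a larger knockout value of at least 100, the 6 highest and lowest differences with a sum over the 4 libraries of at least 400, and the 2 highest and 2 lowest of each list, leaving out unnamed models and genes with 50% or more copied sequence; further members were named, the Zfp family and the lists of the closing section chosen and the histone list widened after values were seen. A gene that these rules name is not reported here. The members and lists were chosen with earlier results of these data known. The count tests used edgeR 4.0.16 and DESeq2 1.42.0 (R 4.3.3). The edgeR test and a 2-fold call were tried on simulated data, and DESeq2 was not. Alternatives were other pseudocounts, filters, scalings, single-entry genes, genes with under 10% copied sequence and, chosen after seeing the data, centring on G+C content or coding length in 20 bins and the other count tests. No replicate can be left out with 1 library per group.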

Additional observations from a re-analysis of the deposited data

Results flagged for a closer look

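In 5 genes named above the knockout and wild-type changes were each at least 2-fold and of opposite sign, with 1 library per group, so the difference was not tested. Kbtbd11 had a knockout change minus wild-type change of 4.67 on the log2 scale and Notch4 of 4.38, both being higher in knockout EBs and lower in wild-type EBs. The testis histone gene H2bc1, with 45.4% of its coding sequence found elsewhere, had 2.51. Klb had -7.36, being lower in knockout EBs and higher in wild-type EBs. Habp2 had -7.79, being higher in wild-type EBs, while its knockout values, 3 reads in ESCs and 0 in EBs, are at or under the floor of 3 reads, so that its knockout direction is not shown and its change came within 2-fold with a pseudocount of 10. Outside the genes, 9.88% of the reads of the knockout EB library lay on no annotated feature, against 7.25% to 7.70% in the other 3 libraries.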

How the results depend on the processing

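No paired analysis was possible because each group has 1 library. Of 860 list medians recomputed under the alternatives, 843 moved by at most 1.5 times and 15 moved by more. A further 2 turned sign from a main value of at least 1.5-fold. Medians nearer to 0 that crossed it were not counted as turned. Of 110 named genes past 2-fold, 5 came within it with a pseudocount of 10, 3 with TMM scaling, 11 with centring on G+C content and 7 with centring on coding length, and none turned direction. With a minimum mean of 100 there were 420 genes higher, 360 lower, 558 differences of 1 or more and 720 of -1 or less. The knockout medians of visceral endoderm products and endothelium were then 3.15 and -0.34, against 1.73 and 0.27 with the main settings. The knockout minus wild-type median of heart and muscle was -2.64, against -1.12. That of mesoderm turned from 1.56 to -2.38, the value of Snai1 alone. That filter tests fewer genes. With a minimum of 10 the mesoderm difference was 0.76. Over genes with under 10% copied sequence the naive pluripotency median was -0.70. Centring on G+C content gave knockout medians of 0.51 for mesoderm and 0.87 for trophoblast and simple epithelium. The differences were then -0.017 for formative genes, -3.61 for endoderm factors, 0.78 for mesoderm and 0.47 for histones. With the main settings these 4 differences were 0.76, -2.83, 1.56 and 1.11, so that of the formative genes turned sign. The cause was not tested. In the stage test DESeq2 gave 274 higher and 101 lower, and edgeR without the filter 243 and 95 of 14376 genes. TMM scaling gave 925 higher and 514 lower in the knockout and moved the median of all genes by 0.07. With 1 library per group, differences between cultures cannot be told apart from differences between genotypes or stages.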

Other observations

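The lists in this section were chosen after their values were seen. Some genes of Notch and Hedgehog signalling were higher in knockout EBs. Of 17 Notch receptors, ligands and targets 13 passed the filter, 7 at least 2-fold higher and none lower, with a median log2 change of 1.30. The median was 0.63 with a minimum mean of 10, and after centring on G+C content 6 were higher and 1 lower. Notch1 went from 2888 to 7089 and Notch3 from 1220.0 to 3615, and the ligand gene Dll1 from 32.0 to 161, while Hes1, a common target, went from 977 to 612. Of 14 Hedgehog pathway genes 11 passed, 5 higher and none lower, with a median of 0.62, or 3 higher and 1 lower with a median of 0.33 after centring. The target Gli1 went from 273 to 1327 and the receptor Ptch1, itself a target, from 513 to 1449.

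Of 17 matrix metalloproteinases and their inhibitors 12 passed, 7 at least 2-fold higher and none lower. Mmp3 went from 36.3 to 310.5 and Mmp2 from 228 to 951. Of 19 genes of antigen presentation 11 passed, 5 higher and none lower. After centring 6 were higher and 1 lower. H2-Eb1, a class II chain, went from 143 to 975 and Tap2, a peptide transporter subunit, from 55.5 to 391, whereas Cd74 and Ciita, partners of class II, had 0 reads in all 4 libraries.

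Of 32 tested centrosomal Cep genes 8 were at least 2-fold lower and none higher, with a median of -0.34, and 0.03 in wild type. After centring on G+C content 3 were lower, and of all genes 6.63% were 2-fold lower, or 14.1% in the group of lowest G+C content. Cep290, a protein of the ciliary transition zone, went from 294 to 77.6. Of 17 tested nucleoporin genes none was past 2-fold, with 15 below 0, where 55.5% of all genes were. The nucleoporin median was -0.41, or -0.40 after centring on G+C content and -0.15 after centring on coding length. The coding sequences of both families are low in G+C content, at medians of 47.6% and 48.8%.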
